A study of Mus musculus with 7 samples.

Results

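Hemoglobin and erythroid transcripts were followed through RNA sequencing of dorsal root ganglia of mice, which hold the cell bodies of sensory neurons. The set held 7 genes chosen by symbol: the adult alpha globin genes Hba-a1 and Hba-a2, the adult beta globin genes Hbb-bs and Hbb-bt, and Alas2, Slc4a1 and Bpgm. The table listed 54309 genes, and each of the 7 symbols was found once. All 7 had a mean of at least 1 TPM (a transcript level divided by transcript length and scaled to the same sum in each sample) and were among the 14800 genes tested.

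The samples came from male C57BL/6 mice aged 6 to 8 weeks, 4 at Zeitgeber time (ZT, hours from lights on) 20 and 3 at ZT8. Lumbar ganglia L4 to L6 were collected 72 h after sciatic nerve injury, and injury and collection fell at the same ZT within a group, so the 2 cannot be told apart. The ganglia were digested with Dispase II, Collagenase II and Papain, and cells from an albumin gradient, a step that enriches neurons, gave the RNA. All groups shared the injury, the strain and this preparation, and no uninjured group was analysed here. The labels do not say whether a sample is 1 animal or a pool, so the p-values measure the spread between these samples only. Library identifiers were numbers at ZT20 and letters at ZT8, and a batch behind them cannot be told apart from the group.

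Red blood cells are filled with hemoglobin, a tetramer of alpha and beta globin chains that each carry a heme. Mature mouse red cells have no nucleus, and reticulocytes, their immediate precursors, still carry much globin mRNA. Blood in the vessels of a tissue that is not flushed before dissection therefore brings globin transcripts into its RNA. Alas2 makes the first enzyme of heme synthesis in erythroid cells. Slc4a1 encodes band 3, the chloride and bicarbonate exchanger that also anchors the red cell membrane to its skeleton. Bpgm makes 2,3-bisphosphoglycerate, the small molecule that lowers the oxygen affinity of hemoglobin, and it is also expressed outside red cells. In bulk RNA, fewer cells of a type and less RNA per cell cannot be told apart.

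The copies within each globin pair are so alike that the division of reads between them is uncertain, which is why their sequences are shown first. The coding sequences of Hba-a1 and Hba-a2 in GENCODE M21 are both 429 nucleotides long with the stop codon and differ at 1 position (99.77% identity), written C381T from Hba-a1 to Hba-a2 and counted from 1 at the A of the start codon. Those of Hbb-bs and Hbb-bt are 444 nucleotides long and also differ at 1 position (99.77% identity), C417T from Hbb-bs to Hbb-bt. The lines give coding bases 361 to 401 of the alpha genes and 397 to 437 of the beta genes, with the base that differs in capitals.
Hba-a1: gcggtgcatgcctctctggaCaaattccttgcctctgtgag
Hba-a2: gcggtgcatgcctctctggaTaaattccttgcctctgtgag
Hbb-bs: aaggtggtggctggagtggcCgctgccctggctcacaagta
Hbb-bt: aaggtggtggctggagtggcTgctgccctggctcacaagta
Of the 31-base words of the Hba-a1 transcript, 71.3% also occurred in Hba-a2, and 91.0% of those of Hba-a2 occurred in Hba-a1. For Hbb-bs and Hbb-bt the shares were 66.9% and 59.4%. Values and tests of a single globin gene therefore rest on the division in the table, and the sums of each pair are given beside them.

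The stretches before the start sites are shown as a description. Whether they bear on differences between samples was not tested. Each line gives 150 bases upstream of the start of the gene, from RefSeq on GRCm38.p6, read along the strand of the gene, with capitals on matches, on either strand, to 4 short motifs. TATAA is the core of the box that places the start site, and CCAAT is a common promoter box. CACCC is a motif of factors such as Klf1, and GATAA is one of the family of Gata1. The submitters' processing notes name GRCm39 for the TPM values, and the coordinates here hold for GRCm38.p6 only.
Hba-a1, chr11:32283522-32283671, plus strand: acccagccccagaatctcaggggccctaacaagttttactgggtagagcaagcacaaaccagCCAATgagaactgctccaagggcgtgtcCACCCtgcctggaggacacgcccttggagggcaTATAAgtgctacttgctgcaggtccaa
Hbb-bs, chr7:103827929-103828078, minus strand: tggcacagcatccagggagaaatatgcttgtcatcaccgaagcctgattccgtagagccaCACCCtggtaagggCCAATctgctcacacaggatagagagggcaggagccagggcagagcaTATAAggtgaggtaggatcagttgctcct
Hbb-bt, chr7:103813924-103814073, minus strand: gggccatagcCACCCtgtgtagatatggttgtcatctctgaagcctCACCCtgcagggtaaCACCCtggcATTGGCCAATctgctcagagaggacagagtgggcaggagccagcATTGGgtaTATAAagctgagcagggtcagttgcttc
Alas2, chrX:150547267-150547416, plus strand: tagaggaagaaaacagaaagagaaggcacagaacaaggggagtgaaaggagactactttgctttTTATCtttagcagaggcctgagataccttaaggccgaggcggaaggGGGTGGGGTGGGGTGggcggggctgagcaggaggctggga
Bpgm, chr6:34476206-34476355, plus strand: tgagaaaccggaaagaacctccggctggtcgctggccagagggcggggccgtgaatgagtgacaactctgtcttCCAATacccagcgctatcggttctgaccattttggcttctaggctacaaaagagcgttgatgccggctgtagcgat
The promoter table held entries for 6 of the 7 genes, and Slc4a1 was not among them. Within 300 bases (250 before and 50 after the start), Hba-a1 and Hba-a2 shared an unbroken run of 297 bases, so only Hba-a1 is printed, while the longest run shared by Hbb-bs and Hbb-bt was 14 bases. TATAA began 27 bases before the start of Hba-a1, 29 before that of Hbb-bs and 28 before that of Hbb-bt, and CCAAT began 88, 76 and 75 bases before. In windows of the same length, 24.9% of 32851 promoters held TATAA, 37.4% CCAAT, 57.5% CACCC and 25.4% GATAA. All 4 motifs stood together in 1.51% of promoters and in the window of each of the 4 globin genes. The windows of Hba-a1 and Hba-a2 are nearly the same sequence and are not separate cases. GATAA matches of the 4 globin genes began 182 to 209 bases before the start, upstream of the printed stretches. No GATAA of a globin gene is therefore in capitals above. The Alas2 window held each of these but CCAAT, with both TATAA matches also upstream of the printed stretch, and that of Bpgm held CCAAT alone. A match of these letters is a description and not a site of binding.

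Before the values, some libraries need mention. ZT20 replicates 3 and 4 had 0 TPM for the Y-linked gene Ddx3y, against 24.2 in ZT20 replicate 1 and 15.3 to 20.7 at ZT8. ZT20 replicate 2 had 11.7 TPM of Ddx3y together with 1.08 TPM of Xist, the transcript of the inactive X chromosome, and replicates 3 and 4 had 2.21 and 2.30 TPM of Xist. These 3 libraries go against the male label. ZT8 replicate 2 had the fewest genes above 0, 18297, where ZT8 replicates 1 and 3 had 22541 and 22973 and the ZT20 samples 24192 to 25238. Summed markers of satellite glia, which wrap the neurons, were 7508 to 9174 TPM at ZT20 and 12773 to 15494 TPM at ZT8. Those of neurons were 23082 to 29224 TPM at ZT20 and 25131, 18759 and 25398 TPM in ZT8 replicates 1, 2 and 3. The median difference of all tested genes was 0.23 on the log2(TPM + 1) scale, ZT20 minus ZT8, and fell to 0.03 after median-ratio scaling. Differences below are on that scale, which understates the change of genes at low levels.

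Values per sample are given in the order of the replicate numbers, 1 to 4 at ZT20 and 1 to 3 at ZT8. Adult hemoglobin varied 10.0-fold between samples, and the highest and the lowest sample were both in the ZT8 group. The 4 globin genes together reached 4989, 2366, 4256 and 6662 TPM at ZT20. They reached 1601, 9523 and 949 TPM at ZT8. The alpha pair summed to 3363, 1530, 2923 and 4614 TPM at ZT20 and to 855, 4294 and 599 TPM at ZT8. The beta pair summed to 1626, 836, 1333 and 2049 TPM at ZT20 and to 746, 5229 and 349 TPM at ZT8. The groups overlapped in both pairs, and ZT8 replicate 2 was below ZT20 replicate 4 in alpha but the highest sample in beta. As shares of all TPM the sums of the 4 genes ran from 0.0949% in ZT8 replicate 3 to 0.952% in ZT8 replicate 2. The ZT8 mean of the 4-gene sum rested on 1 library. The mean was 4568 ± 1780 TPM at ZT20 (SD, n = 4). At ZT8 it was 4024 ± 4773 TPM (SD, n = 3), and the ratio of the means was 1.14. ZT8 replicate 2 stood 7.47 times above the mean of the other ZT8 samples. Without it the ZT8 mean was 1275 TPM and the ZT20 mean was 3.58 times as high.

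**Figure D1:**
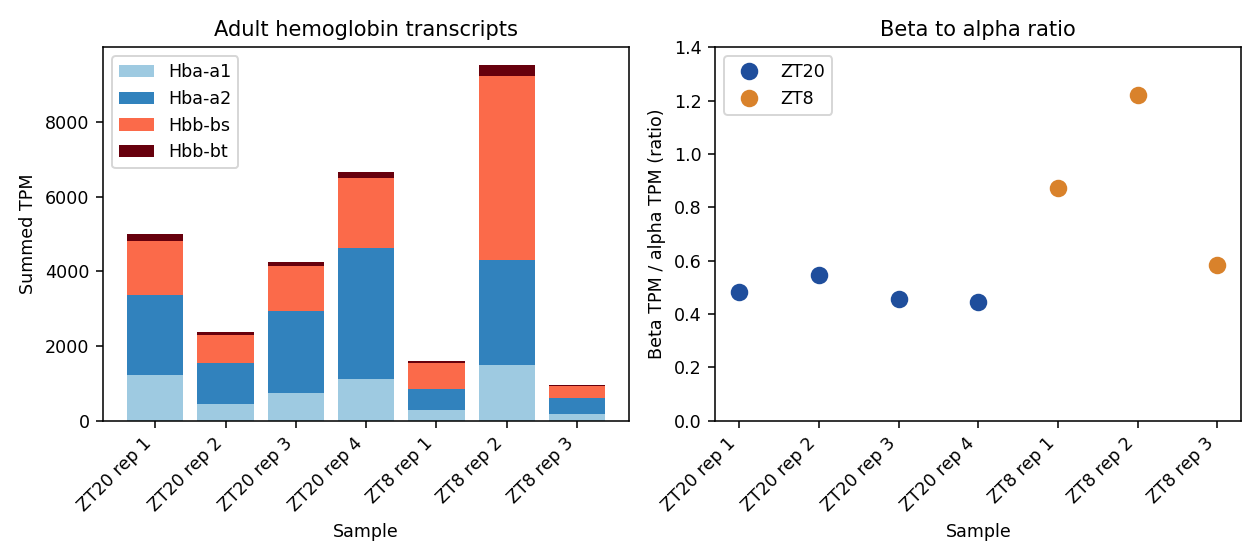
Left, summed TPM of the 4 adult globin genes in each sample, stacked by gene. Right, the ratio of summed beta to summed alpha globin TPM in each sample, with ZT20 in blue and ZT8 in orange. The sum is highest in ZT8 replicate 2 (9523 TPM) and lowest in ZT8 replicate 3 (949 TPM), and all ZT20 ratios (0.444 to 0.547) lie below all ZT8 ratios (0.583 to 1.22).

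Among the alpha globin genes, Hba-a2 was listed at the higher level in every sample. Hba-a2 (ENSMUSG00000069917, chromosome 11) stood at 2150, 1096, 2193 and 3497 TPM at ZT20 and at 577, 2800 and 428 TPM at ZT8. ZT20 replicate 4 was highest, and ZT8 replicate 2 lay inside the ZT20 range while the other ZT8 samples lay below it. The difference was 1.22 ± 0.63 (SE; limma adjusted p = 0.201), with a 95% interval from −0.21 to 2.64. Hba-a2 ranked between 20th and 434th of all genes by level, depending on the sample. Hba-a1 (ENSMUSG00000069919, chromosome 11) stood at 1213, 434, 730 and 1117 TPM at ZT20 and at 279, 1494 and 171 TPM at ZT8. Here ZT8 replicate 2 was highest of all 7 samples, and the groups overlapped. The difference was 0.96 ± 0.68 (SE; limma adjusted p = 0.343), with an interval from −0.59 to 2.52. Hba-a2 made up 63.9% to 75.8% of the alpha sum, a split that rests on how the shared reads were divided.

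Of the beta globin genes, Hbb-bs carried nearly all of the signal. Hbb-bs (ENSMUSG00000052305, chromosome 7) stood at 1458, 772, 1226 and 1872 TPM at ZT20 and at 699, 4942 and 320 TPM at ZT8. ZT8 replicate 2 was 7.08 times above the next ZT8 sample and was the highest of all, and Hbb-bs ranked 10th of all genes there. The difference between groups was 0.29 ± 0.79 (SE; limma adjusted p = 0.816), with an interval from −1.51 to 2.10. Hbb-bt (ENSMUSG00000073940, chromosome 7) stood at 168, 63.8, 108 and 177 TPM at ZT20 and at 47.0, 286 and 29.0 TPM at ZT8. It followed the same order of samples within ZT8 and differed by 0.70 ± 0.71 (SE; limma adjusted p = 0.512). Hbb-bt made up 5.47% of the beta sum in ZT8 replicate 2 and up to 10.3% in ZT20 replicate 1.

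None of the 4 globin genes passed the test with all samples in it, and at an unadjusted p under 0.05 the limma count was also 0 of 4. This changed when ZT8 replicate 2 was left out. Without it the differences were 1.89 for Hba-a1, 2.05 for Hba-a2, 1.42 for Hbb-bs and 1.67 for Hbb-bt, with limma adjusted p from 0.0141 to 0.0431. In that fit 2375 of 14821 tested genes were called higher and 672 lower. The genes of each pair share reads, so these are not 4 separate results. Without ZT8 replicate 3 the Hbb-bs difference was −0.55. Without ZT20 replicates 3 and 4, the libraries that lack Y-linked transcripts, the 4 differences were 0.04 to 0.80, with limma adjusted p from 0.638 to 0.991. Without ZT20 replicate 2 as well they were 1.55 for Hba-a1, 1.28 for Hba-a2, 0.49 for Hbb-bs and 1.18 for Hbb-bt, with limma adjusted p from 0.741 to 0.920.

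**Figure D2:**
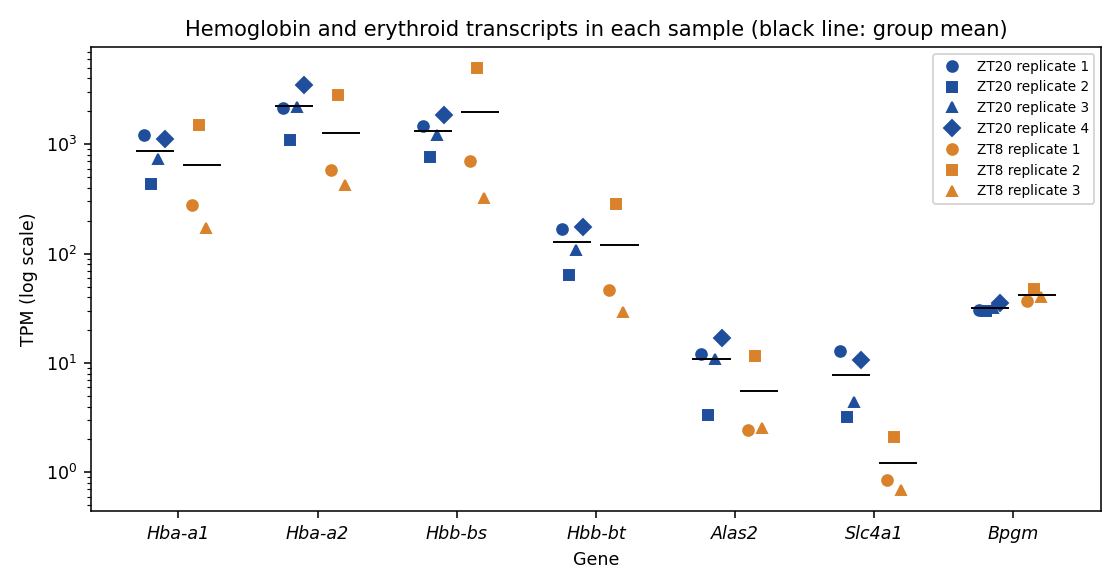
TPM on a log scale for each of the 7 genes, with ZT20 samples in blue and ZT8 samples in orange, 1 marker shape per replicate, and a black line at each group mean. ZT8 replicate 2 (orange square) lies inside or above the ZT20 range for the globin genes and Alas2 but below it for Slc4a1, where the ZT8 samples end at 2.10 TPM and the ZT20 samples begin at 3.23 TPM.

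The balance of beta to alpha globin, unlike the amount of either, did not overlap between the groups. The beta sum divided by the alpha sum was 0.483, 0.547, 0.456 and 0.444 at ZT20. At ZT8 it was 0.872, 1.22 and 0.583. All ZT20 samples lay below all ZT8 samples, with means of 0.483 ± 0.0458 (SD, n = 4) and 0.891 ± 0.318 (SD, n = 3). The ratio was highest where hemoglobin itself was highest, in ZT8 replicate 2, but ZT8 replicates 1 and 3 had the least hemoglobin and also stood above every ZT20 sample. Without ZT8 replicate 2 the ZT8 mean was 0.727. This ratio is a description over the 4 genes and was given no test. The part that transcript length and GC content play in it was not tested. The transcripts are all short, 554 to 703 nucleotides, but the pairs differ in GC content. It is 57.2% for Hba-a1 and 56.9% for Hba-a2, against 51.3% for Hbb-bs and 50.8% for Hbb-bt.

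The other hemoglobin genes summed to 11.9 to 17.9 TPM, most of it from Hbq1b. Hba-x, Hbb-y, Hbb-bh0, Hbb-bh2 and Hbb-bh3, a group with the embryonic chains in it, were listed at 0 in all 7 samples, and Hbb-bh1 was listed at 0.0929 TPM in ZT20 replicate 4 only. Hbq1b, a theta-like alpha globin gene, stood at 9.14 to 16.8 TPM, with 16.8 TPM in ZT8 replicate 2 and 11.9 TPM in ZT8 replicate 3, the samples with the most and the least adult hemoglobin. Cygb (cytoglobin, a globin of non-erythroid cells) stood at 27.9 to 45.5 TPM.

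Alas2 followed hemoglobin at a far lower level. Alas2 (ENSMUSG00000025270, chromosome X) stood at 12.1, 3.31, 10.8 and 17.0 TPM at ZT20 and at 2.42, 11.6 and 2.54 TPM at ZT8. As for Hba-a2, ZT20 replicate 4 was highest, ZT20 replicate 2 was the lowest of its group, and ZT8 replicate 2 stood 4.55 times above the next ZT8 sample. Per 1000 TPM of hemoglobin, Alas2 ran from 1.22 to 2.68 TPM, with overlapping groups. The difference was 0.97 ± 0.59 (SE; limma adjusted p = 0.273), with an interval from −0.37 to 2.30.

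Slc4a1 was the 1 gene of the 7 that passed the test, and it was higher at ZT20. Across all tested genes 12.8% were called higher and 3.61% lower at ZT20, so 1 call in 7 is close to that background. Slc4a1 (ENSMUSG00000006574, chromosome 11) stood at 12.8, 3.23, 4.38 and 10.7 TPM at ZT20 and at 0.842, 2.10 and 0.686 TPM at ZT8. Every ZT20 sample lay above every ZT8 sample, which also held for 24.5% of the genes tested. The ZT20 mean was 7.78 ± 4.69 TPM (SD, n = 4) and the ZT8 mean 1.21 ± 0.773 TPM (SD, n = 3). The difference was 1.87 ± 0.46 (SE; limma adjusted p = 0.0284), with an interval from 0.83 to 2.92. ZT8 replicate 2, the library with the most hemoglobin, had the least Slc4a1 in proportion, 0.220 TPM per 1000 TPM of hemoglobin. In the other ZT8 samples this ratio was 0.526 and 0.723, and at ZT20 it was 1.03 to 2.57.

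The Slc4a1 call depended on single libraries. The limma adjusted p was 0.0690 without ZT20 replicate 1, 0.0544 without ZT20 replicate 3, 0.0858 without ZT20 replicate 4, 0.0621 without ZT8 replicate 1 and 0.0771 without ZT8 replicate 3. The difference stayed between 1.45 and 2.70 over 19 alternatives, of which 7 kept the adjusted p under 0.05. Without ZT20 replicates 3 and 4 the difference was 1.85 (limma adjusted p = 0.210), and without ZT20 replicates 2, 3 and 4 it was 2.70 (limma adjusted p = 0.469). The longest Slc4a1 transcript has 4545 nucleotides, against 554 to 703 for the globin genes. Transcript length moved with the groups. The 2949 genes with the longest transcripts (median 6491 nucleotides) deviated from their 7-sample mean by a median of 0.15 to 0.37 at ZT20 and −0.40 to −0.25 at ZT8. After correction of each sample for length and GC content the Slc4a1 difference was 1.62 (limma adjusted p = 0.0546).

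Bpgm behaved unlike the other 6 genes. Bpgm (ENSMUSG00000038871, chromosome 6) stood at 30.5, 29.6, 32.0 and 35.3 TPM at ZT20 and at 36.6, 48.0 and 40.5 TPM at ZT8. Every ZT20 sample lay below every ZT8 sample, as for 8.72% of the genes tested. Yet the difference, −0.37 ± 0.14 (SE), missed the threshold (unadjusted p = 0.0300, limma adjusted p = 0.105), with an interval from −0.70 to −0.05. Relative to all genes Bpgm was lower still, at −0.60 after median-ratio scaling (limma adjusted p = 0.0351). After correction for length and GC content it was −0.19 (limma adjusted p = 0.399). Bpgm varied 1.62-fold between its lowest and highest sample, against 7.00-fold for Alas2 and 18.7-fold for Slc4a1. Its spread over the 7 samples exceeded that of 19.3% of tested genes, while those of the other 6 genes exceeded 95.7% to 97.7%. In ZT8 replicate 3, where hemoglobin was at its lowest, Bpgm was at its second highest level.

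Profiles over the 7 samples set these genes in order of likeness to hemoglobin. Likeness was measured as the root mean square difference between sample-centred log2(TPM + 1) profiles, where 0 is an identical shape, and a flat profile would stand 1.10 from that of summed hemoglobin. Since the globin genes are parts of the sum, their own values (0.134 to 0.312) only describe their spread. Alas2 stood 0.448 from the sum, Slc4a1 0.912 and Bpgm 1.09. Among the 5 genes outside the 7 that were closest to hemoglobin were Cd300lb (0.379), Mxd1 (0.486) and Hemgn (0.495). Cd300lb is a receptor of myeloid cells, and Hemgn encodes hemogen, a nuclear protein of blood precursors. Hemgn stood at 5.09, 0.837, 1.29 and 2.83 TPM at ZT20 and at 0.433, 3.34 and 0.0170 TPM at ZT8. ZT8 replicate 2 was thus above all but ZT20 replicate 1 in Hemgn, which did not pass the test (limma adjusted p = 0.372).

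Slc4a1 had other neighbours, looked up after its values were seen. The closest were Il1r2 (0.311), Klf1 (0.324), Ear1 (0.339), Alox5 (0.376) and Cxcr2 (0.383). Klf1 is a master transcription factor of erythroid cells, whereas Il1r2, Alox5 and Cxcr2 are expressed in neutrophils and other leukocytes. Klf1 stood at 8.74, 1.87, 1.83 and 5.38 TPM at ZT20 and at 0.529, 1.90 and 0.621 TPM at ZT8, with overlapping groups (limma adjusted p = 0.0990). The genes closest to Bpgm were St7, Snapc3, Stx7, Gpn1 and Asb3, at 0.0427 to 0.0600, where a flat profile would stand at 0.22. Their differences between the groups ran from −0.42 to −0.36.

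**Figure D3:**
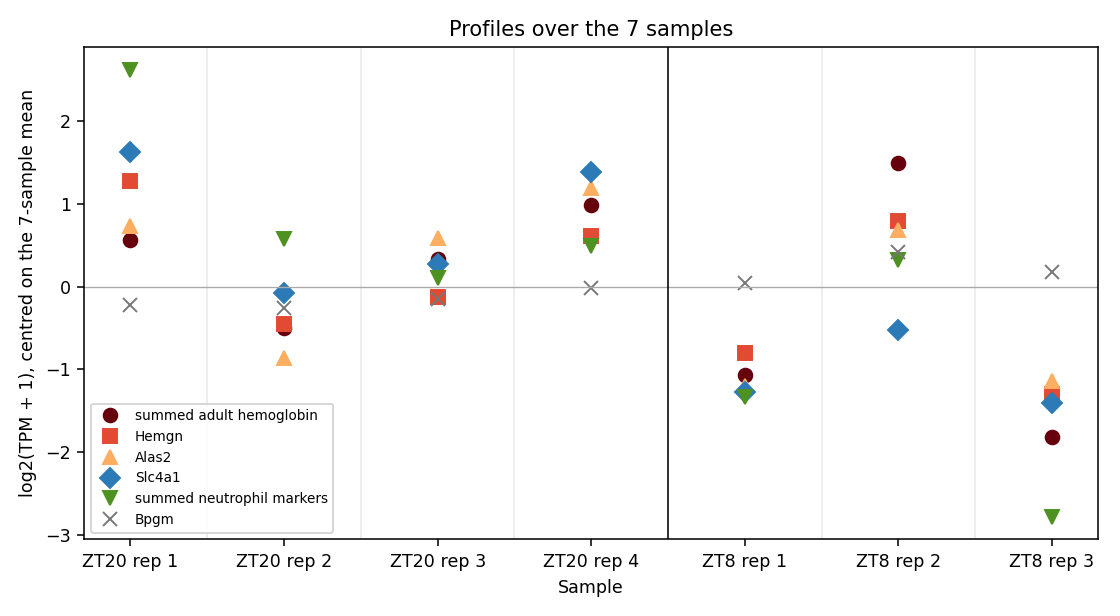
Difference of log2(TPM + 1) from the 7-sample mean for summed adult hemoglobin, Hemgn, Alas2, Slc4a1, summed neutrophil markers and Bpgm in each sample, with ZT20 left of the vertical line and ZT8 right of it. Hemoglobin, Hemgn and Alas2 stand high in ZT8 replicate 2, where Slc4a1 lies below its mean, and Bpgm stays close to 0 throughout.

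Other genes of the erythroid programme were called in both directions. In 4 lists combined (heme synthesis, erythroid transcription factors, erythrocyte membrane, reticulocyte and late erythroid genes), 57 of 69 listed genes were tested, 10 were called higher and 2 lower at ZT20, beside 12.8% and 3.61% of all tested genes. Their median difference was 0.27, beside 0.23 for all tested genes. With length and GC correction 7 genes of these lists were called higher and 2 lower. Leaving out any of ZT20 replicates 1, 3 or 4 gave 6 calls higher. Leaving out ZT8 replicate 2 gave 15, in a fit that called 2375 of all 14821 tested genes higher. Leaving out both ZT20 libraries that lack Y-linked transcripts gave 0 in limma. Across all genes that last fit called 0 as well, with 1775 genes higher and 603 lower at an unadjusted p under 0.05.

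Of 14 heme synthesis genes, 3 rose and 0 fell at ZT20, beside 12.8% and 3.61% of all tested genes, with a median difference of 0.10 beside 0.23 for all genes. The count higher was 1 with length and GC correction and 1 with the replicate block. Fech, the ferrochelatase that inserts iron into the porphyrin ring, rose by 0.73 (SE 0.12; limma adjusted p = 0.00959), from a mean of 75.9 ± 2.75 TPM at ZT8 to 127 ± 15.3 TPM at ZT20. Alas1, the counterpart of Alas2 in most other cells, rose by 0.61 (SE 0.16; limma adjusted p = 0.0342), and its mean of 169 TPM over all samples far exceeded the levels of Alas2. Slc25a37, mitoferrin 1, which brings iron into mitochondria of erythroid cells, stood at 3.38 to 5.70 TPM at ZT20 and 0.287 to 1.24 TPM at ZT8 and rose by 1.57 (SE 0.29; limma adjusted p = 0.0115). Its lowest value, 0.287 TPM, was in ZT8 replicate 2, where hemoglobin was highest. Slc25a39, the most abundant of the list, had a difference of 0.03 (limma adjusted p = 0.941).

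Erythroid transcription factors were at low levels. Of 9, 5 were tested, 0 were called in limma, and 2 were higher at an unadjusted p under 0.05, as were 3848 of all 14800 genes. The median difference was 0.73, beside 0.23 for all genes. Without ZT8 replicate 2, limma called 2 of the list higher, beside 2375 of all 14821 genes tested in that fit. The most abundant were Ldb1, at a mean of 6.61 TPM, and Nfe2, at 6.58 TPM. Nfe2 stood at 16.9, 6.12, 3.51 and 6.05 TPM at ZT20 and at 1.13, 12.3 and 0.0596 TPM at ZT8, a profile with ZT8 replicate 2 high as in hemoglobin. Gata1, the defining factor of the lineage, named here after its values were seen, stood at 0.268 to 1.12 TPM at ZT20 and was listed at 0, 0 and 0.0723 TPM at ZT8. Its mean was under 1 TPM, so it was not tested. Of the other untested factors, Gfi1b was listed at 0 in all ZT8 samples and at 0.129 to 1.32 TPM at ZT20, while the mean of Tal1 was 0.557 TPM at ZT20 and 0.554 TPM at ZT8, and that of Zfpm1 was 0.103 and 0.238 TPM.

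Of 21 erythrocyte membrane genes, 18 were tested, 5 rose and 0 fell at ZT20, beside 12.8% and 3.61% of all tested genes, with a median difference of 0.64 beside 0.23. The count higher was 3 without ZT20 replicate 1, 3 or 4. It was 4 with length and GC correction, 3 with the replicate block and 0 with both together. Epb41 (protein 4.1, which ties spectrin to actin) rose by 1.24 (SE 0.19; limma adjusted p = 0.00686), from 8.93 ± 0.723 to 22.8 ± 4.51 TPM. Ank1, the ankyrin that binds band 3, rose by 1.17 (SE 0.26; limma adjusted p = 0.0227). Xk, a membrane protein of the Kell complex, rose by 1.23 (SE 0.22; limma adjusted p = 0.0110). Dmtn (dematin, an actin bundling protein) rose by 0.81 (SE 0.19; limma adjusted p = 0.0234) at a mean of 236 TPM. Several of these skeletal proteins are also made by neurons. Of 14 neuron markers tested, 4 were called higher and 0 lower at ZT20, beside 12.8% and 3.61% of all tested genes. Their median difference was 0.34, and the part of neurons in the membrane genes was not tested. Ermap, an erythroblast adhesion protein that the naming rule left out and whose values were seen first, stood at 8.20, 2.82, 1.56 and 4.87 TPM at ZT20 and at 0.270, 0 and 0.378 TPM at ZT8 (difference 1.99; limma adjusted p = 0.0195). The 5 called genes have transcripts of 4551 to 8366 nucleotides. Cd59a, the most abundant gene of the list at a mean of 388 TPM, had a difference of −0.34 (limma adjusted p = 0.156).

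Of 25 reticulocyte and late erythroid genes, 20 were tested, 2 rose and 2 fell, beside 12.8% and 3.61% of all tested genes, with a median difference of 0.04 beside 0.23. The count higher was 1 without ZT20 replicate 1, 3 or 4. Tfrc, the transferrin receptor through which cells take up iron, rose by 1.10 (SE 0.16; limma adjusted p = 0.00657), from 17.9 ± 3.41 to 39.1 ± 2.04 TPM. Xpo7, a nuclear exporter used in red cell maturation, rose by 1.11 (SE 0.24; limma adjusted p = 0.0201). Prdx2, a peroxidase abundant in red cells and also in neurons, fell by 0.82 (limma adjusted p = 0.0128), from 1072 ± 219 to 600 ± 70.7 TPM. Ube2l6, an enzyme that conjugates the ubiquitin-like protein ISG15, fell by 0.88 (limma adjusted p = 0.00673). The transcripts that rose measure 4890 nucleotides for Tfrc and 15121 for Xpo7, and those that fell measure 1612 for Prdx2 and 1560 for Ube2l6. After length and GC correction the list again had 2 calls higher and 2 lower. With the replicate block added it had 2 higher and 1 lower. Cd24a, a surface protein of red cells and other cells, had a difference of 0.42 (limma adjusted p = 0.0568).

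Neighbours of Bpgm in glycolysis gave 0 calls in limma among 9 tested genes, with 2 higher and 1 lower at an unadjusted p under 0.05, beside 3848 and 1274 of all 14800 genes, and a median difference of 0.13 beside 0.23. The most abundant were Aldoa, with a difference of −0.02, and Pkm, with 0.34. Of 13 genes that take up or break down free hemoglobin and heme, 10 were tested, and 1 fell, beside 3.61% of all genes. The count was 0 without ZT20 replicate 1, 3 or 4. The gene was Blvra, biliverdin reductase A, at −0.86 (SE 0.19; limma adjusted p = 0.0200). The iron stores Ftl1 and Fth1 differed by −0.09 and 0.27, neither past the threshold.

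**Figure D4:**
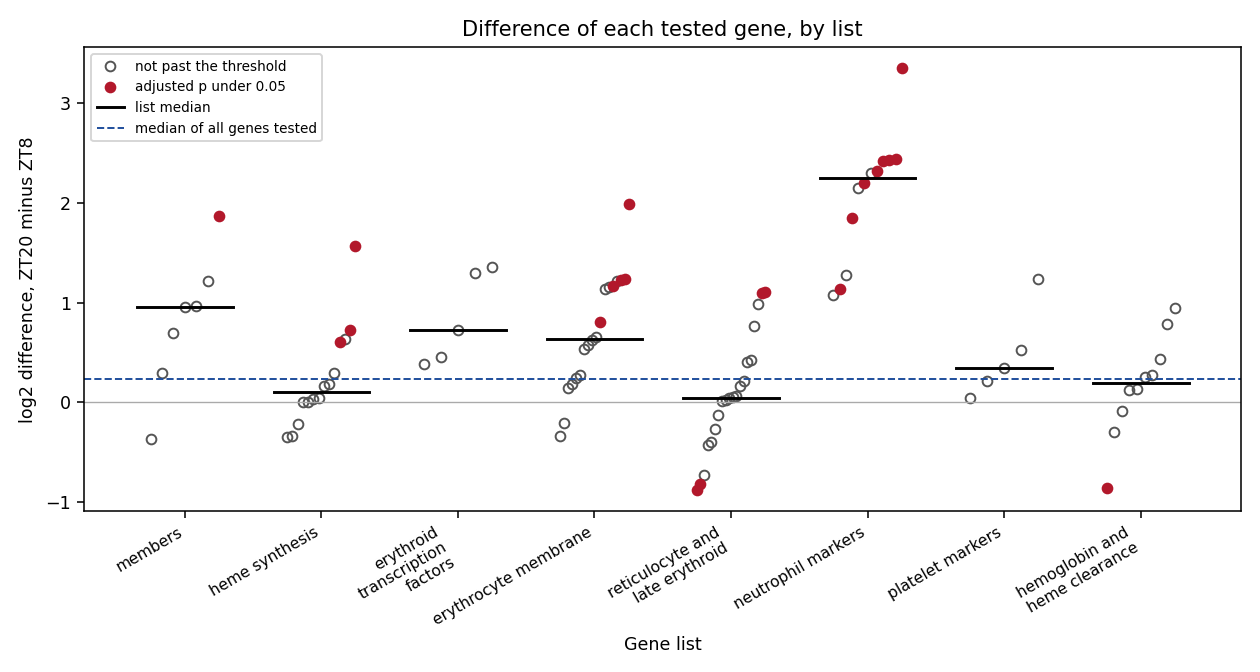
Difference on the log2(TPM + 1) scale, ZT20 minus ZT8, for each tested gene, by list, with filled red points for an adjusted p under 0.05, black bars at list medians and a dashed line at the median of all tested genes (0.23). Neutrophil markers stand highest (median 2.25), and the reticulocyte and late erythroid list has calls on both sides.

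Markers of other blood cells were read beside hemoglobin. All 12 neutrophil markers were tested, and 8 rose and 0 fell at ZT20, beside 12.8% of all genes called higher, with a median difference of 2.25. Their summed level was 5111, 1237, 888 and 1165 TPM at ZT20 and 328, 1034 and 119 TPM at ZT8. ZT20 replicate 1 had the most neutrophil transcript and only the second highest hemoglobin at ZT20, and ZT8 replicate 2 was the highest ZT8 sample in both. Per 1000 TPM of hemoglobin, neutrophil markers ran from 1025 TPM in ZT20 replicate 1 to 109 TPM in ZT8 replicate 2, with overlapping groups. Ngp, a neutrophil granule protein, stood at 1854, 455, 354 and 503 TPM at ZT20 and at 115, 268 and 47.5 TPM at ZT8 (limma adjusted p = 0.0406). Ltf, which encodes lactoferrin of the same granules, was 10.2 ± 5.73 TPM at ZT8 (SD, n = 3) and 135 ± 130 TPM at ZT20 (SD, n = 4), with a difference of 3.35 (limma adjusted p = 0.0124). The neutrophil count was 1 of 12 without ZT20 replicate 4 and 3 without ZT8 replicate 3. It was 4 without ZT20 replicate 1, ZT20 replicate 3 or ZT8 replicate 1. Without ZT8 replicate 2 it was 10, beside 2375 of all 14821 tested genes called higher in that fit. The neutrophil count was 0 without both ZT20 libraries that lack Y-linked transcripts.

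Of 12 platelet markers, 5 were tested and 0 were called in limma, also at an unadjusted p under 0.05. Their summed level was 60.9 TPM in ZT20 replicate 1 and 14.9 to 21.1 TPM in the other 6 samples, so the library with the most hemoglobin, ZT8 replicate 2 (21.1 TPM), differed little in them from the rest. Pf4, a platelet chemokine, stood at 19.6 TPM in ZT20 replicate 1 and 3.45 to 8.29 TPM elsewhere. Endothelial markers, for the vessel wall, summed to 113 to 135 TPM at ZT20 and 145 to 210 TPM at ZT8, highest in ZT8 replicate 2. Egfl7 made up most of that sum, at 97.3 to 112 TPM at ZT20 and 132 to 188 TPM at ZT8. Of 6 tested, Egfl7 was the 1 that fell at ZT20 (limma adjusted p = 0.0482), beside 3.61% of all genes. The other members went both ways in ZT8 replicate 2, where Plvap, Ly6c1 and Kdr were at their highest and Cdh5, Tek and Emcn were listed at 0 (members named after their values were seen). T and NK cell markers, 7 tested, gave 0 calls in limma, also at an unadjusted p under 0.05, and plasma and B cell markers, 6 tested, gave 1 call, Mzb1, lower, beside the same 3.61%. The part of these cells in the hemoglobin values was not tested.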

How the data were processed

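The authors deposited 1 table of TPM for 54309 genes, with 1 column for each of the 7 samples and 0 columns left unused. Per the submitters' processing notes, the tools named are FastQC 0.11.9, Trim Galore 0.6.6, Salmon 1.6.0 and DESeq2 1.34.0, with the build GRCm39. Depth is unknown from TPM, and no count test was run. Values were taken as log2(TPM + 1), and the 14800 genes whose mean reached 1 TPM were fitted with limma 3.58.1 in R 4.3.3 (lmFit, eBayes with an intensity trend, two-sided, no covariates), with Benjamini-Hochberg adjustment over all of them and a threshold of 0.05. The procedure was tested on simulated data. Where a symbol occurred more than once (Aldoa), the entry with the highest mean was used. Transcript lengths and coding sequences came from GENCODE M21 (the longest transcript), with lengths for 14745 tested genes, and promoters from RefSeq on GRCm38.p6.

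The members and lists were chosen with earlier results of these data known. The rule for naming genes takes the 7 members, the 2 most abundant genes of each list, up to 4 called genes per list, and the 5 genes most like summed hemoglobin and most like Bpgm. Genes outside it (neighbours of Slc4a1, Ermap, untested transcription factors, 5 endothelial markers, other globins, sex-linked genes) were named after their values were seen. Ahsp and the symbols Hbb-b1 and Hbb-b2 were listed but are not analysed here. Some genes the naming rule selects are not reported here. Pairing by replicate number was checked, and the numbers were not shown to pair samples. Alternatives changed the pseudocount (to 0.1), the filter (none, or a mean of 5 TPM), the scaling (quantiles, median ratios, or without immunoglobulin or mitochondrially encoded genes) and the model (replicate block, array weights, each replicate left out). Added after seeing the data were a length and GC correction (loess, span 0.3), alone and with the block, and fits without the ZT20 libraries at odds with the male label.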

Additional observations from a re-analysis of the deposited data

Results flagged for a closer look

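Within the 4 ZT20 samples, 86 results were tested for a sample far from the others, by its gap to the nearest sample as a share of the whole range of the group. Dixon's critical value for 4 samples was the limit. About 1 in 20, or 4.30, would pass by chance if the results were independent and normally spread. The sums hold genes that were also tested singly, so an excess over 4.30 cannot be read from the count. The limit was passed by 8 results. ZT20 replicate 1 was the far sample in 6 of them. Ngp stood at 1854 TPM there against 354 to 503 in the others, a gap of 0.900 of the range. S100a8 stood at 1306 TPM against 170 to 269 (gap 0.912), Ltf at 329 against 51.4 to 96.5 (gap 0.837) and Lcn2 at 86.1 against 14.0 to 17.4 (gap 0.953). The summed neutrophil markers stood at 5111 TPM against 888 to 1237 (gap 0.917), and the summed platelet markers at 60.9 TPM against 16.0 to 19.0 (gap 0.935). In the other cases, Dmtn was low in ZT20 replicate 2, at 249 TPM against 296 to 306 (gap 0.837), and Nkg7, a gene of cytotoxic lymphocytes, was low in ZT20 replicate 4, at 4.90 TPM against 23.8 to 26.7 (gap 0.866). Neither the 7 hemoglobin and erythroid genes nor their sum passed the limit, and the 3 ZT8 samples are too few for it.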

How the results depend on the processing

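The direction of each of the 7 genes held in every alternative but 1, Hbb-bs without ZT8 replicate 3 (−0.55). With array weights 4 genes came past the threshold, Hba-a1 at 1.73, Hba-a2 at 2.04, Hbb-bt at 1.51 and Alas2 at 1.69. Leaving out each sample gave 0.33 to 1.89 for Hba-a1, 0.70 to 2.05 for Hba-a2, −0.55 to 1.42 for Hbb-bs, 0.04 to 1.67 for Hbb-bt, 0.64 to 1.58 for Alas2 and 1.60 to 2.17 for Slc4a1. Slc4a1 missed the threshold with no filter (1.87), quantile normalization (1.63), length and GC correction (1.62), and without 2 (1.85) or 3 (2.70) of the ZT20 libraries at odds with the male label. The last fit leaves 1 ZT20 sample, assumed to vary like the ZT8 samples. With a mean of at least 5 TPM Slc4a1 was not tested. Bpgm passed with median-ratio scaling (−0.60) and quantile normalization (−0.55).

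Replicate numbers were not shown to pair samples, with correlations of −0.0141, 0.153 and 0.083 for equal numbers. With the replicate block Slc4a1 stood at 1.68, and with block and length correction at 1.45, and it missed the threshold in both. The block called 891 genes higher and 283 lower, 6 of the erythroid lists higher and 5 neutrophil markers. With the length correction added it called 517 and 121, 2 erythroid genes higher and 1 lower, and 4 neutrophil markers.

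Over all genes, calls higher and lower were 978 and 200 with no filter, 1127 and 1161 with median-ratio scaling, 1023 and 814 with quantile normalization and 2982 and 917 with array weights, and 291 were lower after length and GC correction. They were 620 to 2375 and 103 to 672 leaving out each sample. Without both libraries that lack Y-linked transcripts, and without the 3 at odds with the label, limma called 0 in each direction, with 1775 and 603, and 755 and 400, at an unadjusted p under 0.05. The erythroid lists had 5 higher with no filter, 18 higher and 4 lower with array weights, 6 lower with median-ratio scaling, 0 without those libraries, and 6 to 15 leaving out each sample. Neutrophil markers had 1 with no filter, 4 with either scaling, 0 without those libraries and 1 to 10 leaving out each sample. The causes were not tested. Depth limits the lowest values to an unknown degree.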
